A study of Mus musculus with 18 samples.

Results

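The arcuate nucleus of estradiol-treated female mice was compared between KIKO and ERKO animals, the contrast that sets mice keeping an altered ERα against mice lacking the receptor while both receive hormone. The comparison used 6 of the 18 RNA-seq libraries of the series, 3 from KIKO females given estradiol benzoate (KIKO E2) and 3 from ERKO females given the same (ERKO E2). Genes were kept when their mean over all 18 libraries was at least 0.5 FPKM (fragments scaled to transcript length and to the size of the library), which 14831 of 23235 gene symbols reached. After 60 small RNA genes were set aside, 14771 were tested. All mice were C57/BL females whose ovaries had been removed. Estradiol benzoate was injected into the E2 groups, 250 ng on day 5 after surgery and 1500 ng on day 6, and oil into the oil groups. Tissue was taken 24 h later, after food had been withheld for 1 h. The other groups, of 3 libraries each, were KIKO oil, ERKO oil, WT E2 and WT oil. The labels give neither the animals' ages, nor how the KIKO and ERKO alleles were made, nor whether a library is 1 animal, so p-values measure only the spread between libraries, which may be technical.

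Estradiol binds ERα, the receptor encoded by Esr1. The receptor can bind DNA directly at estrogen response elements (EREs), or reach genes without touching that element, by joining other factors such as AP-1 and Sp1 on DNA or by starting kinase cascades near the membrane. As the name is generally used, KIKO mice have an ERα altered so that it no longer binds EREs, opposite a null allele, and ERKO mice have no working ERα. Under hormone, the pair therefore asks which transcripts differ when only the actions of ERα that do not need EREs are present. The arcuate nucleus holds neurons that carry estrogen feedback to gonadotropin-releasing hormone, among them those making kisspeptin, neurokinin B and dynorphin, and neurons that govern feeding.

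Library ERKO E2 3 stood apart. Correlations of its log2 values with those of the rest ran from 0.919 to 0.953, whereas the remaining 17 correlated at 0.963 to 0.995 with each other. Its FPKM values summed to 628541, against 418191 to 492135 in the others, and its depth, read from the deposited confidence bounds, was the lowest of the 18 (0.728 of the typical library, against up to 1.5). Avp, which encodes vasopressin and is made by magnocellular neurons outside the arcuate nucleus, had 2929, 2067 and 3321 FPKM in KIKO E2 libraries, against 3345, 3684 and 13107 FPKM in ERKO E2 libraries. The counts, the lists and the leading genes are therefore given with and without this library.

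Very few transcripts separated KIKO E2 from ERKO E2. With limma on log2(FPKM + 1), 2 of 14771 genes passed an adjusted p of 0.05 (0.0135%), both higher in KIKO E2, and the same 2 passed without ERKO E2 3. At an unadjusted p under 0.05 there were 475 genes (3.22%), 320 higher (2.17%) and 155 lower (1.05%) in KIKO E2. Without ERKO E2 3 there were 435 (2.94%), 271 higher (1.83%) and 164 lower (1.11%). This count rested on single libraries, with 2233 genes without ERKO E2 1 and 2276 without ERKO E2 2, and on the fit, with 203 when only these 2 groups were fitted. The 95% confidence interval of the difference lay within 1 log2 unit on either side of 0 for 13466 genes (91.2%). Without ERKO E2 3 this held for 14210 (96.2%). These intervals use the spread shared by all 6 groups, and log2(FPKM + 1) understates differences of low genes. Without hormone, KIKO oil against ERKO oil gave 0 genes past the threshold and 340 (2.3%) at an unadjusted p under 0.05. That count was 1156 when ERKO E2 3 was kept out of the shared spread, 3080 with only these groups in the fit, 2977 with library weights, and 147 to 222 without ERKO oil 1, 2 or 3 or KIKO oil 1 or 3. The difference between the 2 genotypes' E2 responses also gave 0 genes past the threshold, with 323 (2.19%) at an unadjusted p under 0.05. Here there were 1515 genes without ERKO E2 1, 1894 without ERKO E2 2, 219 without ERKO E2 3, 616 with library weights and 188 to 214 without ERKO oil 1 or 3, KIKO oil 3 or KIKO E2 1. For scale, WT E2 against WT oil gave 116 genes past the threshold (0.785%), 89 higher (0.603%) and 27 lower (0.183%).

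The 2 genes that passed were Gldn and 6330403A02Rik. Gldn, on chromosome 9, encodes gliomedin, an extracellular adhesion protein known for gathering sodium channels at nodes of Ranvier in peripheral nerve. 6330403A02Rik, on chromosome 1, is listed by RefSeq as Stum. The naming rule left it out because its symbol is a clone name, and it is given here as the only other gene past the threshold. Igfbp2, on chromosome 1, encodes an insulin-like growth factor binding protein, had the smallest p-value among genes lower in KIKO E2 and did not pass. Because the comparison turns on EREs and on AP-1 and Sp1 sites, the RefSeq promoters of these 3 genes are shown, from 250 bases before to 50 bases after the listed start, on the gene's own strand (build GRCm38.p6). They lie at chr9:54286236-54286535 on the plus strand for Gldn, chr1:180483455-180483754 on the minus strand for 6330403A02Rik and chr1:72824230-72824529 on the plus strand for Igfbp2, which has 2 starts listed. Capitals mark AP-1 sites (TGACTCA or TGAGTCA), Sp1 sites (GGGCGG or CCGCCC) and single arms of the ERE palindrome (GGTCA or TGACC).
Gldn: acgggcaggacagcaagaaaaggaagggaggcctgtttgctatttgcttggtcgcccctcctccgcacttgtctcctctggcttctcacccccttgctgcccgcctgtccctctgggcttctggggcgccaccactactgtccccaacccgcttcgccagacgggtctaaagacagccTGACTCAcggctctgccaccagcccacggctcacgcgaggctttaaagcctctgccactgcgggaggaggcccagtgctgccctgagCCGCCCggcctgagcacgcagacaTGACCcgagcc
6330403A02Rik: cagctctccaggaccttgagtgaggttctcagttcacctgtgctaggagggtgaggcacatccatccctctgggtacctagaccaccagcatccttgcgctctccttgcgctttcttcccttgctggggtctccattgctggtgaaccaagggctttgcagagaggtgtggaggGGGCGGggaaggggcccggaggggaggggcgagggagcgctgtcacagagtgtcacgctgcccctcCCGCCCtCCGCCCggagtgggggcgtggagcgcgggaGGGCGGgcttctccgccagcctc
Igfbp2: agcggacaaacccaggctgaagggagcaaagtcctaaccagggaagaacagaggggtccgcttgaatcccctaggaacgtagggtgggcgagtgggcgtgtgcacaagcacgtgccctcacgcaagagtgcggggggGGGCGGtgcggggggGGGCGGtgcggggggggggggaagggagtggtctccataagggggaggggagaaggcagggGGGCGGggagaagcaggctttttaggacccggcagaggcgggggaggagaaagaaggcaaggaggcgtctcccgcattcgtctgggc

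None of these windows held the full ERE (GGTCANNNTGACC), which occurs in 0.1% of 32851 RefSeq promoters of the same length. The Gldn window held 1 AP-1 site, starting 72 bases before the start, 1 Sp1 site and 1 single ERE arm. The 6330403A02Rik window held 4 Sp1 sites and the Igfbp2 window 3, with no AP-1 site or ERE arm in either. Among all 32851 promoters, 5.2% held an AP-1 site, 35.7% an Sp1 site and 40.5% a single ERE arm. Both strands were searched, and a single arm is also part of the full element. These are letter matches in short windows and do not show that any factor binds there.

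Gldn had 5.51, 8.46 and 11.1 FPKM in KIKO E2 libraries, against 1.54, 1.22 and 0.73 FPKM in ERKO E2 libraries. Every KIKO E2 library lay above every ERKO E2 library, and the ratio of the means was 7.17 (6.04 without ERKO E2 3). The log2 difference was 2.08 ± 0.22 (SE; adjusted p = 0.000821, limma), and 1.93 ± 0.23 without ERKO E2 3 (adjusted p = 0.0025). In a fit of the 6 E2 libraries of these genotypes alone, with their own spread, neither Gldn nor 6330403A02Rik passed (adjusted p = 0.954 each). The widths of the deposited confidence bounds imply 382, 882 and 854 fragments in KIKO E2, against 128, 90 and 41 in ERKO E2. Under oil Gldn had 1.56, 2.12 and 2.7 FPKM in KIKO, against 1.58, 1.78 and 1.62 FPKM in ERKO, and those groups overlapped (log2 difference 0.22 ± 0.22, adjusted p = 0.998). In WT it had 0.738, 0.75 and 0.646 FPKM after E2, against 1.35, 0.774 and 1.75 FPKM after oil, all of them below the KIKO E2 range (WT log2 difference −0.40 ± 0.22, adjusted p = 0.584). KIKO E2 thus held the highest Gldn of the 6 groups, and the 3 KIKO E2 libraries exceeded all 15 others. The genotypes' E2 responses differed for Gldn by 1.87 ± 0.31 on the log2 scale, with the smallest p of all genes for that difference (1.94e-05), which did not pass after adjustment (0.286; 1.71 ± 0.31 and 0.553 without ERKO E2 3). It passed when KIKO E2 1 was left out (adjusted p = 0.0373) and in no other alternative run, and the cause was not tested.

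Gldn was also the only called member of the pathway and cell type lists compared here. It stands among 9 markers of the ventromedial nucleus, which adjoins the arcuate nucleus. The other 8 differed by −0.38 to 0.27 on the log2 scale and none passed. Nr5a1, which encodes the factor SF-1 that defines this nucleus, had 6.43, 12.4 and 5.5 FPKM in KIKO E2, against 10.5, 5.65 and 12.2 FPKM in ERKO E2, and the groups overlapped (−0.21 ± 0.39; −0.01 ± 0.45 without ERKO E2 3). Fezf1, another marker of that nucleus, had 5.34, 11.4 and 5.15 FPKM in KIKO E2 and 8.76, 5.45 and 6.78 FPKM in ERKO E2. Neither marker was ordered by genotype as Gldn was. Of the 9 markers, 3 lay above 0 with all libraries (median −0.03), beside 8164 of 14771 genes. Without KIKO E2 1, 6 of the 9 did (median 0.14), beside 8339 of 14771. The part of tissue from this nucleus in the Gldn difference was not tested.

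6330403A02Rik had 8.87, 9.94 and 13.5 FPKM in KIKO E2 libraries, against 3.1, 3.96 and 3 FPKM in ERKO E2 libraries, with no overlap and a ratio of the means of 3.21. The log2 difference was 1.42 ± 0.15 (adjusted p = 0.000821), and 1.36 ± 0.17 without ERKO E2 3 (adjusted p = 0.0025). Unlike Gldn, this gene changed after E2 in WT, with 14, 17.5 and 16.7 FPKM in WT E2, against 3.37, 5.07 and 3.92 FPKM in WT oil (1.74 ± 0.15, adjusted p = 1.28e-05). KIKO E2 therefore lay between ERKO E2 and WT E2. Under oil the KIKO libraries held 5.46, 4.9 and 5.5 FPKM, against 3.86, 4 and 3.39 FPKM in ERKO. The oil groups did not overlap either, which held for 28.1% of all genes in that contrast, and differed by 0.41 ± 0.15 (adjusted p = 0.998). The genotypes' E2 responses differed by 1.02 ± 0.22 for this gene (adjusted p = 0.746; 0.96 ± 0.22 without ERKO E2 3).

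**Figure D1:**
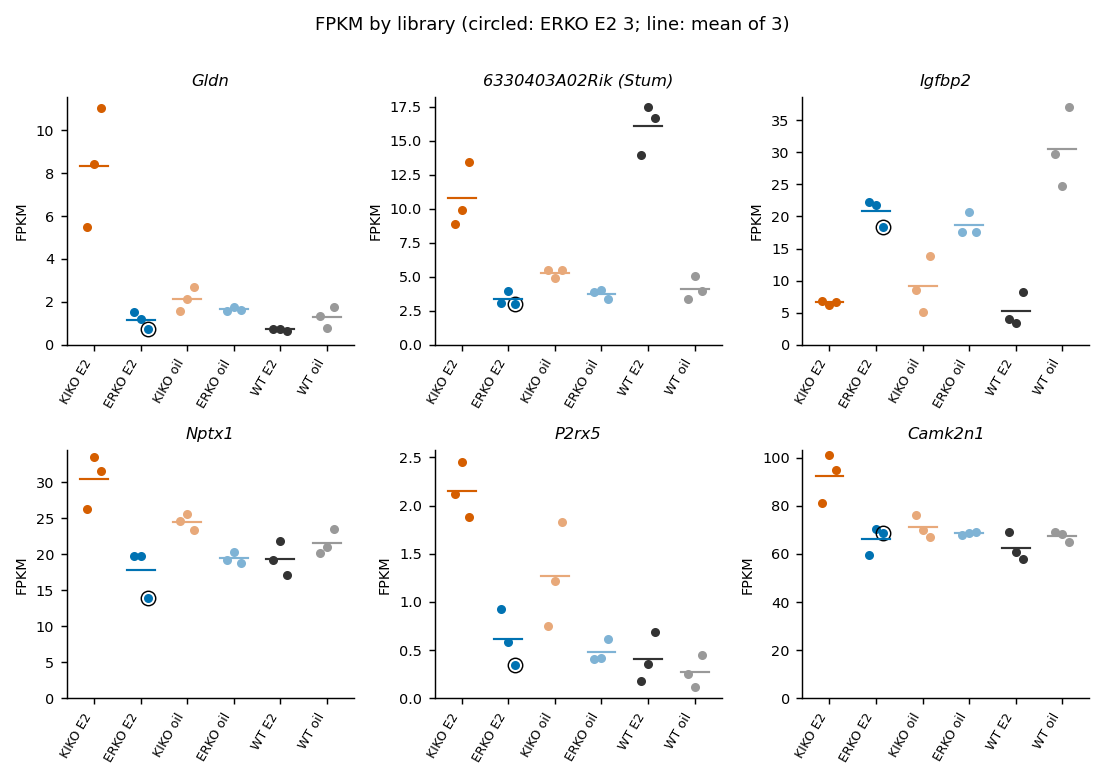
FPKM in each of the 18 libraries for the 6 genes with the smallest p-values among those without overlap between KIKO E2 and ERKO E2; points are libraries, lines are means of 3 and the circle marks ERKO E2 3. Gldn reaches 5.51 to 11.1 FPKM in KIKO E2 alone, 6330403A02Rik is raised in KIKO E2 and WT E2, and Igfbp2 is at 6.21 to 6.88 FPKM in KIKO E2, against 18.4 to 22.2 FPKM in ERKO E2.

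Igfbp2 had 6.88, 6.21 and 6.69 FPKM in KIKO E2 libraries, against 22.2, 21.8 and 18.4 FPKM in ERKO E2 libraries. The KIKO E2 values lay close together and far below ERKO E2 (−1.52 ± 0.28, ratio of means 0.317), but the adjusted p was 0.251, and 0.417 without ERKO E2 3. When only the 3 KIKO E2 libraries and the 2 remaining ERKO E2 libraries were fitted, an alternative chosen after seeing the data, Igfbp2 was the single gene that passed (adjusted p = 0.00107), and Gldn and 6330403A02Rik did not (0.129 each). Under oil Igfbp2 was spread widely in KIKO, at 8.52, 5.04 and 13.8 FPKM, against 17.6, 20.7 and 17.6 FPKM in ERKO (−1.05 ± 0.28, adjusted p = 0.998). In WT it fell to 4.01, 3.35 and 8.23 FPKM after E2, against 29.8, 24.8 and 37 FPKM after oil (−2.41 ± 0.28, adjusted p = 0.000222). The KIKO E2 libraries thus sat inside the WT E2 range, through WT E2 3 alone, and also inside the KIKO oil range. The genotypes' E2 responses differed by −0.47 for Igfbp2 (−0.55 without ERKO E2 3) and did not pass.

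The rest of the 10 smallest p-values without overlap belonged to 7 genes, all higher in KIKO E2 and none past the threshold (adjusted p 0.166 to 0.788). Nptx1, which encodes a secreted pentraxin that clusters AMPA receptors at synapses, had 26.3, 33.5 and 31.6 FPKM in KIKO E2, against 19.7, 19.8 and 13.9 FPKM in ERKO E2 (0.75 ± 0.13; 0.59 ± 0.11 without ERKO E2 3). P2rx5, an ATP-gated channel subunit, had 2.13, 2.46 and 1.88 FPKM in KIKO E2, against 0.926, 0.58 and 0.342 FPKM in ERKO E2 (0.98 ± 0.19; 0.85 ± 0.21 without ERKO E2 3). P2rx5 was also higher in KIKO oil than in ERKO oil without overlap, at 0.746, 1.22 and 1.83 FPKM against 0.41, 0.417 and 0.614 FPKM. Camk2n1, an inhibitor of the calcium-dependent kinase CaMKII, had 81.1, 101 and 94.9 FPKM in KIKO E2, against 59.4, 70.4 and 68.8 FPKM in ERKO E2 (0.47 ± 0.10; 0.50 ± 0.10 without ERKO E2 3). For Camk2n1 the oil groups lay together, at 67.2 to 76.2 FPKM in KIKO and 68.1 to 69.2 FPKM in ERKO. The remaining 4 were Etv5, an ETS-family transcription factor (0.44 ± 0.10), the fibrillar collagen gene Col5a1 (0.76 ± 0.16), the interferon-induced GTPase gene Ifi47 (1.06 ± 0.25) and the orphan receptor gene Gpr153 (0.45 ± 0.11). These 4 differed by 0.43, 0.57, 1.13 and 0.34 without ERKO E2 3. Groups without overlap were found for 812 of 14771 genes in this contrast (5.5%), so separation alone did not set these genes apart.

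**Figure D2:**
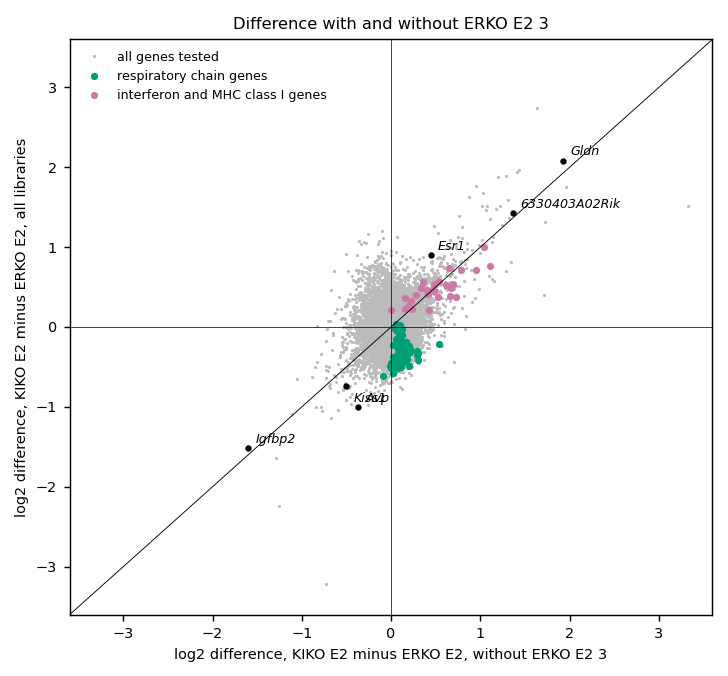
Log2 difference of KIKO E2 minus ERKO E2 for 14771 genes with all libraries (vertical axis) and without ERKO E2 3 (horizontal axis); each point is a gene and the diagonal marks equality. Gldn and 6330403A02Rik stay at the upper right and Igfbp2 at the lower left on both axes, whereas 72 respiratory chain genes lie mostly below 0 with all libraries and above 0 without ERKO E2 3.

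Esr1 transcripts, on chromosome 10, were found in both genotypes. KIKO E2 libraries had 3.05, 3.89 and 2.85 FPKM, against 1.91, 2.34 and 0.212 FPKM in ERKO E2 libraries, where the bounds imply 147, 160 and 11 fragments. The groups did not overlap, but the difference did not pass (0.90 ± 0.32, adjusted p = 0.788), and it was 0.44 ± 0.25 without ERKO E2 3. Under oil the values were 2.91, 4.08 and 3.94 FPKM in KIKO, against 1.62, 2.39 and 2.27 FPKM in ERKO. The same values in WT were 3.45, 5.24 and 5.88 FPKM after E2 and 5.38, 6.92 and 11.9 FPKM after oil. A gene-level FPKM value cannot tell transcripts of an altered allele from those of an intact one, so it does not show which ERα protein, if any, was made. Among 80 tested genes within 20 Mb of Esr1, the median log2 difference was 0.04 (−0.01 without ERKO E2 3), 1 was higher and 3 were lower at an unadjusted p under 0.05, beside 2.17% and 1.05% of all genes, and none passed. These counts were 9 and 5 without ERKO E2 1 and 12 and 3 without ERKO E2 2, the fits that also put the most genes overall below that p (2233 and 2276).

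Kisspeptin neurons of the arcuate nucleus co-express Kiss1, Tac2 (neurokinin B) and Pdyn (dynorphin precursor), and these 3 transcripts were not ordered alike between the genotypes. Kiss1 had 280, 253 and 282 FPKM in KIKO E2, against 481, 306 and 629 FPKM in ERKO E2, with no overlap (−0.74 ± 0.32, adjusted p = 0.788; −0.50 ± 0.34 without ERKO E2 3). Under oil the order was the other way, at 483, 378 and 651 FPKM in KIKO, against 265, 280 and 370 FPKM in ERKO (0.70 ± 0.32, adjusted p = 0.998). The genotypes' E2 responses accordingly differed by −1.44 ± 0.45 for Kiss1 (adjusted p = 0.746; −1.20 ± 0.46 without ERKO E2 3). WT Kiss1 was far lower after E2 than in any KIKO library, at 34.8, 58.3 and 20.9 FPKM, against 520, 360 and 419 FPKM after oil. In a dissected tissue, fewer cells of a type and less RNA per cell cannot be told apart. Pdyn was ordered the other way, at 116 FPKM in each of the 3 KIKO E2 libraries, against 79.7, 89.1 and 40.8 FPKM in ERKO E2 (0.80 ± 0.24, adjusted p = 0.788; 0.45 ± 0.18 without ERKO E2 3). Its oil groups differed by as much, at 128, 121 and 165 FPKM in KIKO and 68, 80.9 and 80.6 FPKM in ERKO (0.83 ± 0.24), and its E2 responses differed by −0.03 ± 0.34 (−0.38 ± 0.24 without ERKO E2 3). Tac2 overlapped, at 840, 583 and 736 FPKM in KIKO E2 and 861, 524 and 896 FPKM in ERKO E2 (−0.05 ± 0.24), and the sign of its difference turned in some alternatives.

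The differences of Pomc, Cartpt and Sst were smaller without ERKO E2 3, though the Sst groups still did not overlap. Pomc, which encodes the precursor of α-MSH and β-endorphin, had 789, 527 and 793 FPKM in KIKO E2, against 1044, 675 and 1646 FPKM in ERKO E2 (−0.60 ± 0.25; −0.28 ± 0.19 without ERKO E2 3). Cartpt, whose peptide CART is made in the same neurons, had 370, 226 and 386 FPKM in KIKO E2, against 507, 366 and 1009 FPKM in ERKO E2 (−0.84 ± 0.29; −0.44 ± 0.22 without ERKO E2 3). Sst, which encodes somatostatin, was the panel member with the smallest p and did not overlap, at 803, 623 and 890 FPKM in KIKO E2, against 1223, 961 and 1826 FPKM in ERKO E2 (−0.76 ± 0.21, adjusted p = 0.788; −0.51 ± 0.16 without ERKO E2 3). Its oil groups lay together, at 840 to 956 FPKM in KIKO and 917 to 974 FPKM in ERKO. Agrp and Npy, the appetite-promoting peptides of a shared neuron type, overlapped throughout, at 106 to 260 FPKM in KIKO E2 and 118 to 256 FPKM in ERKO E2 for Agrp, and at 513 to 1098 FPKM in KIKO E2 and 579 to 1042 FPKM in ERKO E2 for Npy. Th, Gal, Ghrh and Prlr, for tyrosine hydroxylase, galanin, growth hormone-releasing hormone and the prolactin receptor, differed by −0.16, −0.05, −0.07 and −0.04 with overlap. The signs of these 4 and of Agrp and Npy turned in some alternatives. Of the 14 genes of this arcuate panel, 0 passed, 1 was higher and 4 were lower at an unadjusted p under 0.05 (beside 2.17% and 1.05% of all genes), and 3 lay above 0. Without ERKO E2 3, 9 of the 14 lay above 0, beside 54.2% of all genes, and 2 were higher and 1 lower at that p, beside 1.83% and 1.11%. Without KIKO E2 2 the panel had 8 genes above 0, with 1 higher and 1 lower at that p.

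**Figure D3:**
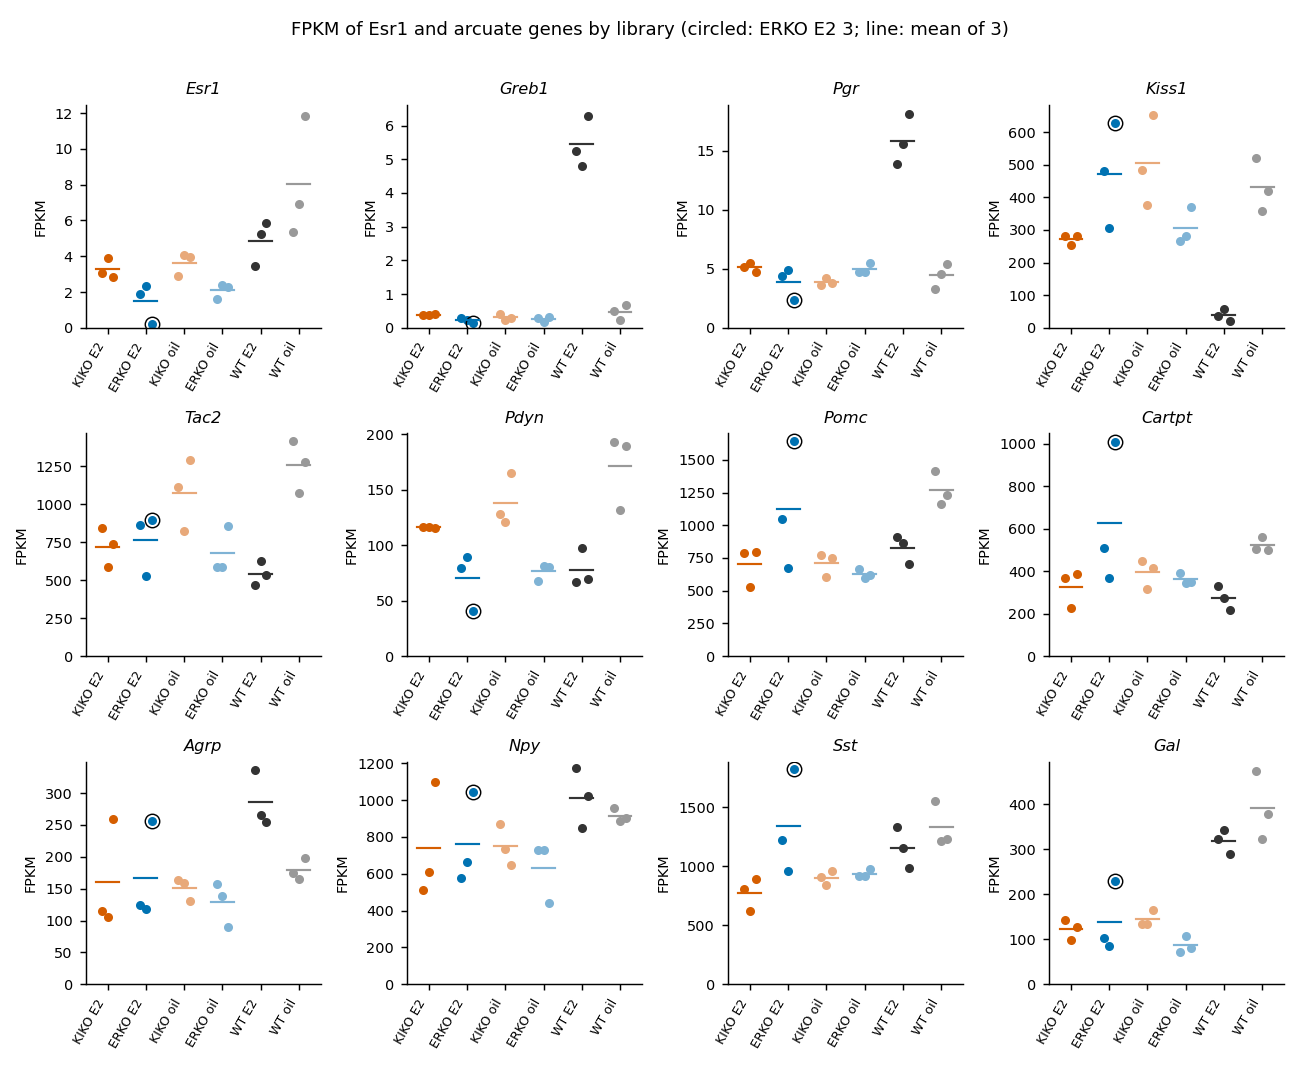
FPKM in each of the 18 libraries for Esr1 and 11 arcuate genes; points are libraries, lines are means of 3 and the circle marks ERKO E2 3. KIKO E2 lies below ERKO E2 without overlap for Kiss1 and Sst and above it for Pdyn, Esr1 and Greb1, and the highest Pomc, Cartpt, Sst and Gal values of the ERKO E2 group are those of ERKO E2 3.

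The genes that E2 changed in WT were next set beside KIKO E2 against ERKO E2. The log2 differences of that contrast use none of the WT libraries. The filter and the spread behind the p-values of both contrasts came from all 18 libraries. Of the 116, 76 differed in the WT direction in KIKO E2 against ERKO E2 and 40 against it, with a median of 0.06 log2 units in the WT direction. The median size of the WT change in the same genes was 0.93. Without ERKO E2 3 the numbers were 69 and 47 (median 0.04), and after centring each library on its median they were 61 and 55 (median 0.02). Over all 14771 genes 55.3% lay above 0, while 57 of the 89 genes that rose in WT lay above 0 and 8 of the 27 that fell in WT did (52 and 10 without ERKO E2 3). Between the oil groups 48.5% of all genes lay above 0, and the 116 gave 48 in the WT direction and 68 against it (median −0.04).

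A short set accounted for the larger differences. With all libraries, those in the WT direction by at least 0.5 log2 units were 6330403A02Rik, Igfbp2, Kiss1, Timp1, Lhfpl1 and Gfra1, and against it Pdyn. Gfra1, the co-receptor for the growth factor GDNF, differed by 0.57 with all libraries and by 0.09 without ERKO E2 3, whereas 1500009L16Rik differed by 0.35 and 0.62. Timp1, an inhibitor of matrix metalloproteinases, had 2.93, 0.699 and 1.96 FPKM in KIKO E2, against 4.17, 3.21 and 6.28 FPKM in ERKO E2 (−1.0 ± 0.27, adjusted p = 0.788; −0.79 ± 0.27 without ERKO E2 3), and its oil groups ran the other way, at 2.4, 2.43 and 3.4 FPKM in KIKO and 2.12, 1.5 and 2.23 FPKM in ERKO. Lhfpl1, whose product is a predicted membrane protein, had 0.164, 0.272 and 0.147 FPKM in KIKO E2, against 0.991, 0.963 and 0.657 FPKM in ERKO E2 (−0.64 ± 0.16, adjusted p = 0.788; −0.73 ± 0.18 without ERKO E2 3). These Lhfpl1 values were all below 1 FPKM, and its difference ran from −1.73 to −0.60 over the alternatives. Only 6330403A02Rik of this set passed the threshold.

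The classical estrogen targets Greb1 and Pgr stayed below their WT E2 values in both genotypes. The genes given after them were chosen by the size of their WT change. Greb1, an ERα coactivator gene induced through EREs, had 0.369, 0.373 and 0.406 FPKM in KIKO E2, against 0.28, 0.244 and 0.146 FPKM in ERKO E2, while WT E2 libraries had 5.24, 4.8 and 6.29 FPKM. Its log2 difference was 0.18 ± 0.13 (0.13 ± 0.16 without ERKO E2 3), with a 95% confidence interval of −0.10 to 0.46, against a WT change of 2.13. Pgr, the progesterone receptor gene, had 5.12, 5.47 and 4.76 FPKM in KIKO E2, against 4.39, 4.9 and 2.39 FPKM in ERKO E2 (0.36 ± 0.19; 0.12 ± 0.15 without ERKO E2 3), while WT E2 libraries had 13.9, 15.5 and 18.1 FPKM. Rln3, which encodes relaxin 3 and rose most in WT, was at 0 to 0.484 FPKM in KIKO E2 and 0 to 0.683 FPKM in ERKO E2, and at 9.47 to 16.4 FPKM in WT E2. Aqp5 (a water channel), Fam151a, Col24a1 and Mad2l1 differed by 0.07 or less on the log2 scale, with signs that turned in some alternatives. Aqp5 was at no more than 0.557 FPKM in KIKO E2, against 5.78 to 14.6 FPKM in WT E2. Smoc2 and Phf21b, the other strong risers of WT, differed by 0.21 and 0.41 (0.06 and 0.15 without ERKO E2 3). Among the strong fallers, Tacr3 (the neurokinin B receptor), Vgf (a neurosecretory precursor), Procr and Nxph3 differed by −0.07, −0.21, −0.47 and −0.44 (−0.16, −0.24, −0.11 and −0.40 without ERKO E2 3). None passed, and the signs of Tacr3 and Vgf turned in some alternatives.

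**Figure D4:**
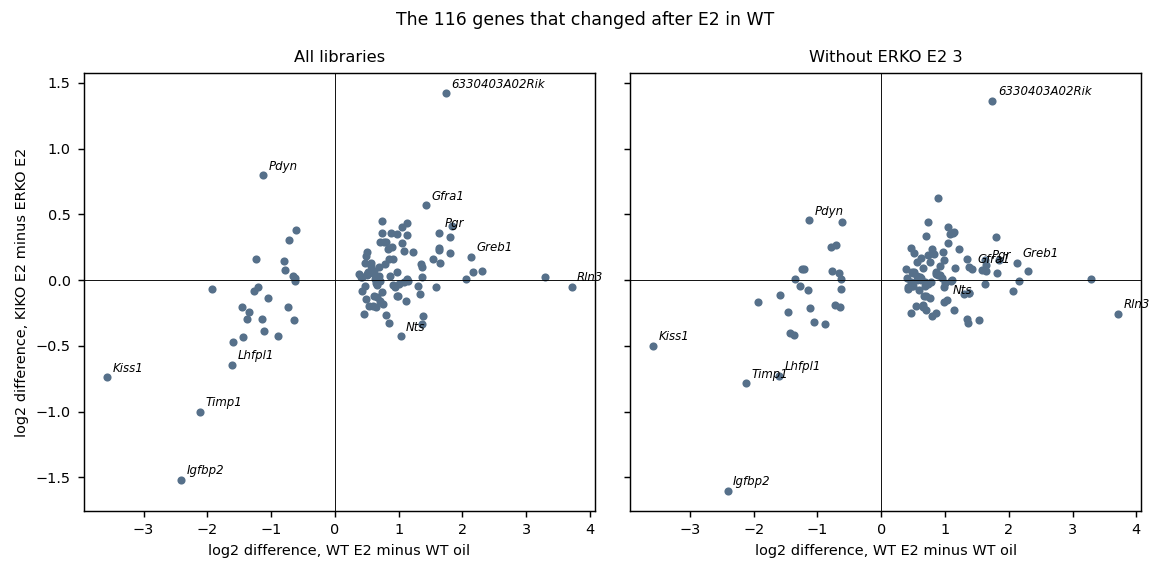
Log2 difference of KIKO E2 minus ERKO E2 against that of WT E2 minus WT oil for the 116 genes past the threshold in WT, with all libraries (left) and without ERKO E2 3 (right); each point is a gene. Most points lie near 0 on the vertical axis, and the labelled 6330403A02Rik, Igfbp2, Timp1, Lhfpl1 and Kiss1 lie in the WT direction by at least 0.5 log2 units in both panels. Pdyn lies against it, by 0.80 on the left and 0.45 on the right.

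Lists arranged by the route of ERα action did not single out one route. Of 20 tested genes linked to EREs, 12 lay above 0 (median log2 difference 0.03), and of 17 genes described as targets of ERα tethered to AP-1 or Sp1, 12 lay above 0 (median 0.13), beside 55.3% and a median of 0.03 for all genes. Without ERKO E2 3 these were 10 of 20 (median 0.03) and 10 of 17 (median 0.04), beside 54.2% and 0.01. None of either list passed. Ccnd1 (cyclin D1), a textbook tethered target, had 14.9, 13 and 17.3 FPKM in KIKO E2, against 14.1, 12.5 and 13.1 FPKM in ERKO E2. Myc, another, had 3.28, 3.77 and 3.36 FPKM in KIKO E2, against 2.93, 2.64 and 2.96 FPKM in ERKO E2, without overlap (0.22 ± 0.16; 0.24 ± 0.18 without ERKO E2 3), and 9.36 to 11.7 FPKM in WT E2. The ERE-linked list held 1 gene at an unadjusted p under 0.05, Kcnmb1 (a potassium channel subunit), with a difference of −0.42 ± 0.16 (−0.22 ± 0.15 and above that p without ERKO E2 3), beside 3.22% of all genes at that p. The list had 3 higher and 3 lower genes at that p without ERKO E2 1, and 2 higher and 1 lower without ERKO E2 2. Of 17 tested partner factors, 14 lay above 0 (median 0.16), and 11 without ERKO E2 3 (median 0.03). Below an unadjusted p of 0.05 were 2 of the 17, beside the same 3.22%: Jun, at 32.7, 29.6 and 29.9 FPKM in KIKO E2, against 27.6, 28.3 and 20.4 FPKM in ERKO E2, and Atf3, at 3.59, 2.31 and 2.41 FPKM in KIKO E2, against 1.88, 0.784 and 2.33 FPKM in ERKO E2. Jun was above that p without ERKO E2 3, with a difference of 0.13 ± 0.08. In that fit 2 of the 17 were below it, beside 2.94% of all genes, Atf3 (0.72 ± 0.25) and another factor. Of the 17 tethered targets, 0 were below that p with all libraries and 1, higher in KIKO E2, was without ERKO E2 3.

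Immediate early genes, which neurons switch on within minutes of activity, included 22 of 26 above 0 (median 0.19), beside 55.3% of all genes. Without ERKO E2 3 it was 20 of 26 (median 0.15), beside 54.2%, and none passed. In each fit 3 were higher at an unadjusted p under 0.05, beside 2.17% and 1.83% of all genes. That number ran from 1 without KIKO E2 2 to 7 without KIKO E2 3 and without ERKO E2 2. Arc, whose protein acts at active synapses, had 5.71, 9.09 and 6.58 FPKM in KIKO E2, against 5.4, 3.89 and 4.66 FPKM in ERKO E2, without overlap (0.51 ± 0.19, adjusted p = 0.788; 0.52 ± 0.21 without ERKO E2 3). Fos had 16.1, 16.3 and 16 FPKM in KIKO E2 and 11.8, 11.7 and 19.8 FPKM in ERKO E2, so its groups overlapped through ERKO E2 3. Under oil 13 of the 26 lay above 0 (median −0.01).

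Interferon-response and MHC class I genes, which cells use against viruses and to display antigens, lay to one side as a list. All 27 tested members had a log2 difference above 0 (median 0.46), 8 of them at an unadjusted p under 0.05 beside 2.17% of all genes, and none passed. Without ERKO E2 3, 26 of 27 lay above 0 (median 0.48), beside 54.2% of all genes, and 9 were below that p, beside 1.83%. The number below that p was 16 without KIKO E2 1, 11 without ERKO E2 1, 5 without KIKO E2 3, 4 without KIKO E2 2 and 3 without ERKO E2 2. H2-D1, an MHC class I heavy chain gene, had 58.6, 75.4 and 60.1 FPKM in KIKO E2, against 52.4, 40.2 and 48.3 FPKM in ERKO E2, without overlap (0.45 ± 0.12, adjusted p = 0.788; 0.48 ± 0.13 without ERKO E2 3). Gbp3, an interferon-induced GTPase gene, had 4.74, 10 and 6.11 FPKM in KIKO E2, against 3.78, 1.91 and 3.03 FPKM in ERKO E2 (1.00 ± 0.31; 1.04 ± 0.35 without ERKO E2 3). Isg15 and B2m, for a ubiquitin-like protein and the light chain of MHC class I, overlapped between the groups.

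The level of these genes varied from library to library within each group. The list's median, measured from each gene's mean over 18 libraries, was −0.14, 0.53 and 0.18 in KIKO E2, against −0.08, −0.46 and −0.24 in ERKO E2. KIKO E2 1 therefore lay within the ERKO E2 range, and the list's median difference was 0.29 without KIKO E2 2 and 0.37 without ERKO E2 2. The 6 WT medians ran from −0.27 to 0.60, and the highest of all 18 was that of WT oil 1. Under oil 17 of 27 lay above 0 (median 0.06). The summed FPKM of 12 microglia markers was 197, 208 and 174 in KIKO E2 and 190, 143 and 344 in ERKO E2, and that of 12 endothelial and mural markers was 93.8, 128 and 122 in KIKO E2 and 119, 85.4 and 124 in ERKO E2. Both marker sums were lowest among ERKO E2 libraries in ERKO E2 2, where the interferon list was lowest too. The ERKO E2 library with the highest sums, 344 and 124, had the middle list median, −0.24. Within KIKO E2 the endothelial and mural sums ranked as the list did, and the microglia sums did not. The KIKO E2 library with the lowest microglia sum, 174, had a list median of 0.18, above that of KIKO E2 1 (197 and −0.14). The part of these markers in the result was not tested.

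**Figure D5:**
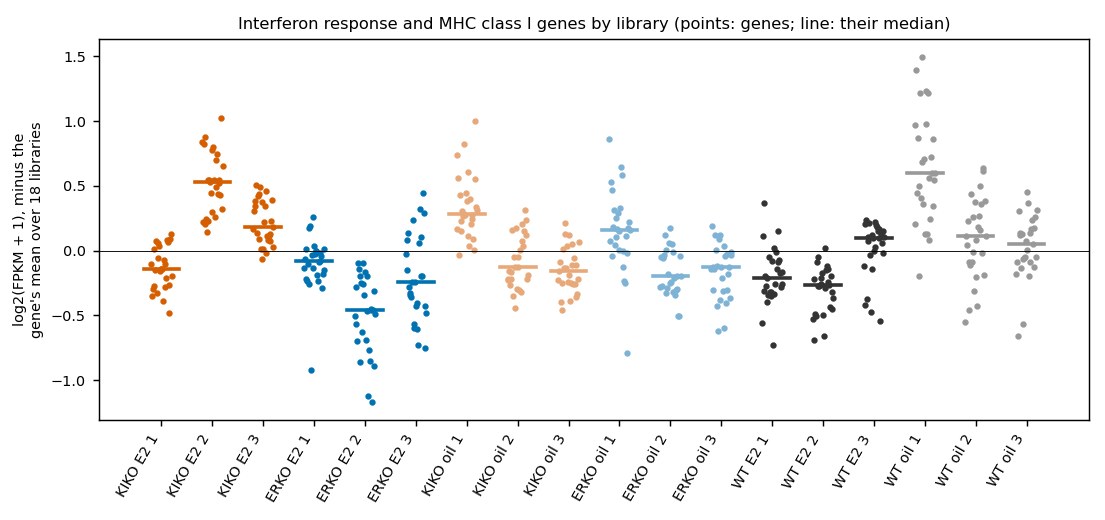
Log2(FPKM + 1) of 27 interferon-response and MHC class I genes in each library, each gene measured from its mean over 18 libraries; points are genes and lines their medians. The medians are −0.14, 0.53 and 0.18 in KIKO E2 and −0.08, −0.46 and −0.24 in ERKO E2, and the highest, 0.60, is that of WT oil 1.

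Several other groups of genes turned with ERKO E2 3. Among 72 nuclear genes of the mitochondrial respiratory chain, 2 lay above 0 with all libraries (median −0.33) and 68 without ERKO E2 3 (median 0.12). Cox4i1, a subunit of cytochrome c oxidase, had 634, 489 and 667 FPKM in KIKO E2, against 540, 550 and 1565 FPKM in ERKO E2. The medians of 18 steroid receptors and coregulators were 0.18 with all libraries and −0.12 without ERKO E2 3, and those of 28 calcium, HCN, TRP and sodium channels 0.14 and −0.14. Among 13 insulin-like growth factor genes and their binding proteins and receptors, 12 lay above 0 with all libraries and 7 without ERKO E2 3, and Igfbp2 was the member on the other side in the first count. None of these genes passed in either fit.

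Markers of neighbouring tissue differed between libraries of both groups. The summed FPKM of 8 tested pituitary and pars tuberalis markers was 556, 436 and 327 in KIKO E2, against 386, 181 and 233 in ERKO E2, with a median log2 difference of 1.33 (1.16 without ERKO E2 3). Cga, the shared subunit of pituitary glycoprotein hormones, had 261, 200 and 116 FPKM in KIKO E2, against 172, 19.2 and 4.93 FPKM in ERKO E2 (2.74 ± 2.43; 1.64 ± 3.11 without ERKO E2 3), and it ran from 0 to 307 FPKM among WT libraries. Ependymal markers summed to 201, 118 and 167 FPKM in KIKO E2 and 153, 150 and 487 FPKM in ERKO E2, and magnocellular and paraventricular markers to 4604, 3043 and 5222 FPKM in KIKO E2 and 5018, 5429 and 20569 FPKM in ERKO E2. Neuron markers summed to 1447, 1389 and 1433 FPKM in KIKO E2 and 1376, 1490 and 1639 FPKM in ERKO E2. No marker but Gldn passed, and the part of these markers in the differences above was not tested.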

How the data were processed

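Per the labels, each of 18 arcuate nucleus libraries was made from total RNA and sequenced on an Illumina HiSeq2500. The authors deposited 1 table per library with gene values in FPKM and their confidence bounds, also in FPKM. The submitters' processing notes name TopHat2 2.0, Cuffdiff and mm10, with no annotation. The gene positions in the tables looked to be of another build, so only chromosomes are given for genes, and promoter positions are RefSeq's. Entries sharing a symbol were summed, and 99.0% of 23235 symbols matched RefSeq.

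Fragment numbers were inferred from the bounds and were whole, within 0.02, for 70.6% to 72.6% of genes in each library, so they show depth only and no count test was run. Values were log2(FPKM + 1), which understates changes of low genes. limma 3.58.1 (R 4.3.3) fitted 6 group means over 18 libraries (12 residual degrees of freedom), with trended, robust variances, two-sided tests and Benjamini-Hochberg adjustment over 14771 genes at 0.05. It was tested on simulated data with independent libraries of equal spread, which held no library standing apart as ERKO E2 3 does. Errors are SE of the fit, and n = 3 per group except where a library is left out. Python 3.11.15 and pandas 2.3.3 were used for tables.

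The rule named Esr1, genes past the threshold without clone names, 14 arcuate genes, up to 8 strong WT changes in each direction and the 10 smallest p-values without overlap; other genes are given as list examples chosen after their values were seen. The members, the 35 gene lists and the tests were chosen with earlier results of these data known. Lists are described by counts and medians, without a set test.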

Additional observations from a re-analysis of the deposited data

How the results depend on the processing

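The count of 2 genes for KIKO E2 against ERKO E2, Gldn and 6330403A02Rik, stayed between 2 and 3 in 16 of 18 alternatives. The added gene was Slc18a2 with library weights and Tff3 with no filter on low values. In 2 alternatives the count fell. It was 0 with only these groups in the fit, and 1 (Igfbp2, lower) with only these groups and without ERKO E2 replicate 3, an alternative chosen after seeing the data, as was leaving out genes of status FAIL. Leaving out each replicate in turn gave 2 each time, and 0 to 1 genes for the difference in E2 responses. That difference gave 2 genes with no filter on low values (Serpinb7, lower, and Tff3, higher). For KIKO oil against ERKO oil, library weights gave 75 genes, 45 higher and 30 lower in KIKO oil, and no filter gave 1 (Serpinb7, higher). The replicate block gave 2, 0 and 0 genes for the 3 comparisons. Deviations from the group means correlated at −0.033, 0.442 and 0.526 between same-numbered KIKO E2 and ERKO E2 libraries. Between differently numbered ones the correlations ran from −0.515 to 0.457. The numbers were not taken to pair the libraries. The cause of these changes in the counts of genes was not tested.

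Among 38 named genes, 24 kept the sign of their difference in every alternative run and 14, none of them called, did not. The log2 difference of KIKO E2 minus ERKO E2 turned, with library weights, to 0.16 for Agrp, −0.072 for Aqp5, −0.067 for Col24a1, 0.42 for Gal, 0.35 for Ghrh, −0.0065 for Mad2l1, 0.037 for Npy, 0.14 for Tac2 and 0.11 for Th. With quantile normalization it was 0.091 for Agrp, −0.058 for Aqp5, −0.13 for Col24a1, −0.016 for Fam151a, 0.13 for Gal, 0.10 for Ghrh, −0.041 for Mad2l1, 0.16 for Npy, 0.23 for Tac2 and 0.048 for Vgf. With median centring it was −0.039 for Aqp5, −0.057 for Col24a1 and −0.0043 for Mad2l1, and with a pseudocount of 0.1 it was −0.17 for Aqp5. In the fit of only these groups without ERKO E2 replicate 3 it was 0.27 for Agrp, −0.080 for Col24a1, 0.38 for Gal, 0.35 for Ghrh, −0.0051 for Mad2l1, 0.17 for Npy, 0.084 for Tac2 and 0.080 for Th. Leaving out each replicate in turn, it ranged from −0.49 to 0.27 for Agrp, −0.15 to 0.17 for Aqp5, −0.080 to 0.094 for Col24a1, −0.33 to 0.38 for Gal, −0.35 to 0.35 for Ghrh, −0.0087 to 0.12 for Mad2l1, −0.40 to 0.17 for Npy, −0.25 to 0.070 for Prlr, −0.26 to 0.13 for Rln3, −0.30 to 0.089 for Tac2, −0.16 to 0.029 for Tacr3 and −0.31 to 0.080 for Th.

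Depth limits genes of few fragments, and FPKM carries no depth of its own into the tests. Of 14771 genes, 8164 lay above 0 in KIKO E2 against ERKO E2, 7386 did with quantile normalization and 6341 with median centring, so small differences of either sign move with the scaling.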

Other observations

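Genes with a mean below 0.5 FPKM over the 18 libraries were left out of the comparison, and 1 of them, Tff3, passed when no filter on low values was used. Tff3, on chromosome 17, encodes trefoil factor 3, a secreted peptide of mucosal surfaces. It had 1.55, 1.03 and 1.39 FPKM in KIKO E2 libraries and was listed at 0 in the 3 ERKO E2 libraries, as in the ERKO oil, WT E2 and WT oil libraries. Among KIKO oil libraries it was at 0 in 2 and at 0.217 FPKM in the other. The deposited bounds imply 6 fragments in each KIKO E2 library, so its level was near the limit of detection at this depth. It was named after its values were seen.

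Slc18a2, on chromosome 19, encodes the vesicular monoamine transporter, which loads dopamine into vesicles. It had 25.1, 26.7 and 30.3 FPKM in KIKO E2 libraries, against 17.6, 16.5 and 29.2 FPKM in ERKO E2 libraries, so the groups overlapped only through ERKO E2 3. The log2 difference was 0.40 ± 0.16 with all libraries and 0.65 ± 0.11 without ERKO E2 3 (adjusted p = 0.788 and 0.0889, limma). Slc18a2 did pass with library weights, where ERKO E2 3 had the lowest weight, 0.0511. Th, the enzyme that starts dopamine synthesis, differed by −0.16 and 0.08 in the same fits. Slc18a2 too was named after its values were seen.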
